A study of Mus musculus with 37 samples.

Results

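Genes for the signalling and identity of medium spiny neurons were followed through 37 arrays of temporal lobe from mice with and without Wfs1. The set held 31 of the 18193 genes that the array reads with a probe set of 1 symbol. Each gene was read by its brightest such probe set over all arrays. All 31 passed the filter on dim signals, a mean log2 signal of at least 3.6 in 1 or more groups, as did 13078 genes in all. Ppp1r1b, Pde10a and Rgs9 served as the markers of these neurons. Some of the other members were chosen by their correlation with these markers in the same arrays, so the values of the members are given as a description of these arrays and not as a test of the set.

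The mice were wild type (WT) or lacked Wfs1 (KO), the gene of wolframin, an endoplasmic reticulum protein. The labels call the backgrounds C57 and 129SV and the allele WFS1 KO. The design text writes C57B6 and 129S6 for the backgrounds, which are named C57 and 129 here. The arrays numbered 9 for WT and 9 for KO in C57, and 9 for WT and 10 for KO in 129, each of total RNA from microdissected and frozen temporal lobe with no treatment named. Sex, age, litter and the part of Wfs1 that was removed are not given in the sources used here. Whether every array stands for a separate animal is not stated either. All p-values therefore rest on the spread between these samples, which may be technical.

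Medium spiny neurons are the GABA-releasing projection neurons that make up most of the striatum. Dopamine reaches them through D1-type receptors, which raise cAMP, or D2-type receptors, which lower it. The cAMP signal is made by a striatal adenylyl cyclase with its own stimulatory G protein, is broken down by phosphodiesterases that these neurons express strongly, and ends on DARPP-32, the product of Ppp1r1b, which blocks protein phosphatase 1 once protein kinase A has phosphorylated it. A small group of transcription factors, among them a retinoic acid receptor, sets and keeps the identity of these cells. The labels name the temporal lobe and not the striatum. All 3 markers were bright here, with mean signals over 37 arrays of 9.27 for Ppp1r1b, 9.15 for Pde10a and 8.02 for Rgs9.

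The Wfs1 signal separated the genotypes on every array. C57 WT had 9.32 ± 0.17 (SD, n = 9), C57 KO had 3.03 ± 0.26 (SD, n = 9), 129 WT had 9.33 ± 0.12 (SD, n = 9) and 129 KO had 3.11 ± 0.28 (SD, n = 10). After removal of group means, the arrays were split into a set of 19 and a set of 18 by 40 genes that include no member. These genes were chosen because their values fell most clearly at separate levels, so the split follows in part from that choice. The lower sample numbers of each group were in set 1, and the labels do not explain these numbers. The difference between the 3' and 5' actin probe sets, which depends on RNA integrity, lay between 0.91 and 2.76 and had a correlation of 0.03 with the member score defined next.

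A score was taken for each array as the mean deviation of the 31 genes from their own means over all arrays, on the log2 scale. C57 WT had a score of 0.13 ± 0.27 (SD, n = 9), and C57 KO had -0.19 ± 0.27 (SD, n = 9). The C57 WT arrays ran from -0.41 in array 37 through a median of 0.14 to 0.58 in array 26. The C57 KO arrays ran from -0.54 in array 9 through -0.20 to 0.19 in array 1. The groups overlapped over most of their range, with 7 of 9 KO arrays and 2 of 9 WT arrays below 0. In bulk tissue, a smaller share of medium spiny neurons in the dissected piece and less RNA from each of them cannot be told apart. The labels do not give how much striatum each piece held. The score difference between KO and WT in C57 was -0.32 (SE 0.13), a 1.25-fold lower mean signal. It was -0.40 within array set 1 and -0.29 within set 2.

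The 129 groups lay closer together. The score was 0.09 ± 0.19 (SD, n = 9) in 129 WT, from -0.18 in array 72 through 0.12 to 0.30 in array 70. In 129 KO it was -0.03 ± 0.26 (SD, n = 10), from -0.40 in array 56 through -0.03 to 0.32 in array 54. Below 0 were 5 of 10 KO and 3 of 9 WT arrays. The difference was -0.12 (SE 0.10), and -0.08 without KO array 56. It was 0.00 within array set 1 and -0.27 within set 2.

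**Figure D1:**
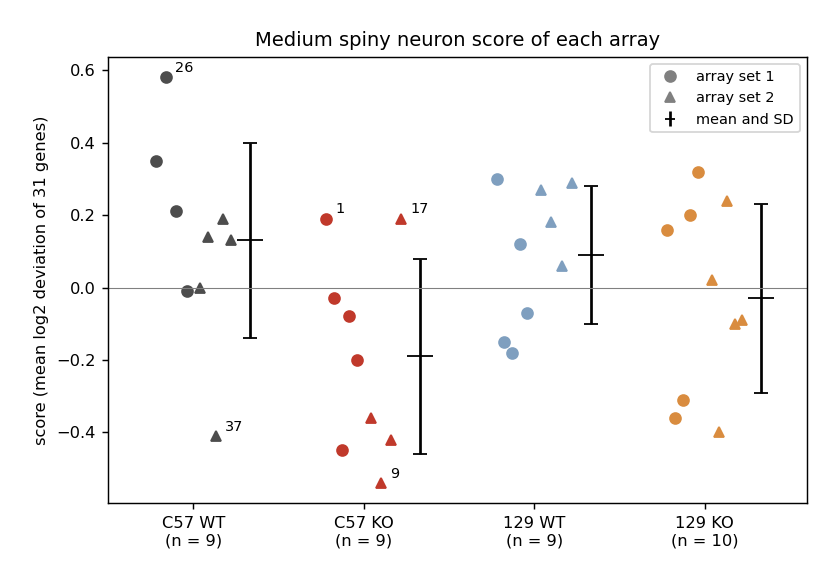
Score of each of the 37 arrays, the mean log2 deviation of the 31 genes from their own means, by strain and genotype. Circles are array set 1, triangles array set 2, and bars give the group mean and SD. The C57 KO mean of -0.19 lies below the C57 WT mean of 0.13, and WT array 37 at -0.41 sits among the lowest KO arrays.

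The score summed up a shift that most members shared within an array. Some members were picked because they follow the markers in these arrays, so the shared shift partly describes that choice. In 11 arrays at least 26 of the 31 genes were below their own mean, in 13 arrays at most 5 were, and 13 arrays lay between. Of the uniformly low arrays 5 were C57 KO, 1 was C57 WT, 3 were 129 KO and 2 were 129 WT. Of the uniformly high arrays 1 was C57 KO, 5 were C57 WT, 3 were 129 KO and 4 were 129 WT. All 31 members were low in C57 KO arrays 3 and 9 and in 129 KO array 56, and none was low in 129 KO array 54. The uniform state thus occurred in both genotypes of both strains. C57 WT array 37 had 30 of 31 members below their means, while C57 KO arrays 1 and 17 had only 3 and 6. Within C57 WT, array 26 had 30 members above and array 37 had 1. The map of deviations shows these arrays as columns of 1 colour.

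**Figure D2:**
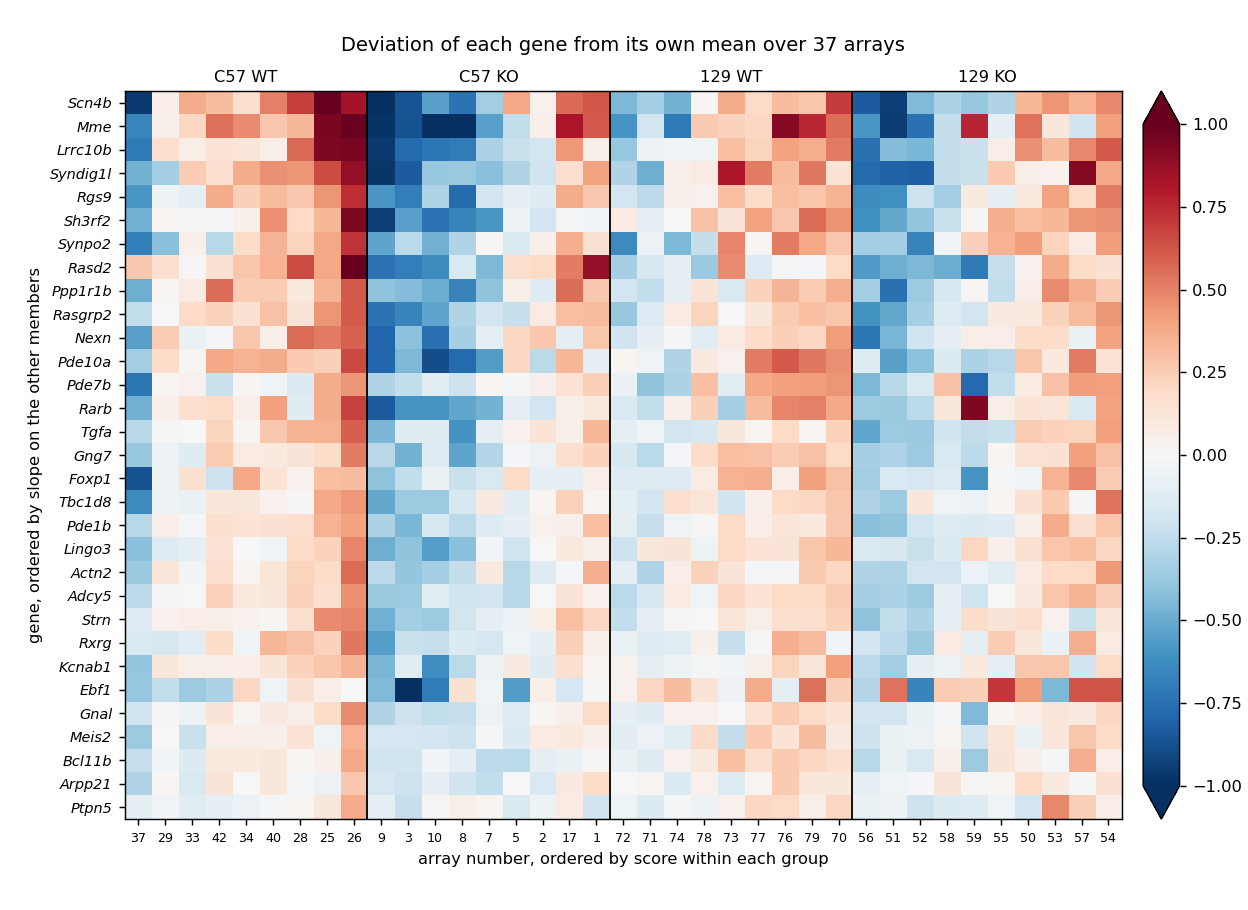
Log2 deviation of each of the 31 genes (rows, ordered by their slope on the other members) from its own mean, in each of the 37 arrays (columns, ordered by score within each group). Columns are mostly of 1 colour from top to bottom, as in C57 WT array 37 with 30 of 31 genes below their means, and colours are deepest in the upper rows.

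Across C57, all 31 members had a lower mean in KO than in WT. Their median difference was -0.25 on the log2 scale, from -0.75 for Mme to -0.02 for Pde7b. Of all genes tested 38.4% had a difference below 0, and the median over all was 0.02. In the limma fit over all genes no member passed an adjusted p of 0.05, where 0.107% of all genes did, and the smallest adjusted p of a member was 0.207 for Pde10a. At an unadjusted p under 0.05, 22 of the 31 members were lower and none was higher, against 1.7% of all genes lower and 6.37% in either direction at that level. These 22 are not separate observations, since the members moved together from array to array. No member had KO and WT values that did not overlap, as 0.0153% of all genes with lower KO values did. The highest C57 signal of every member was in a WT array, for most of them array 26, which also had the highest score. The count thus rests mostly on 1 array, and the share over all genes is not given here.

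In 129, 28 of 31 members were lower in KO, with a median of -0.11 and a range from -0.30 for Syndig1l to 0.01. Of all genes 52.4% were lower, with a median of 0.00. No member passed the adjusted threshold (0.00765% of all genes did) and none had an unadjusted p under 0.05 (2.13% of all genes did). Arpp21, Ebf1 and Synpo2 were the 3 members with no lower mean. Within array set 1 alone 13 of 31 members were lower, and within set 2 alone 30 were. No member had 129 KO values wholly below WT, as 0.00765% of all genes did.

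The mean of both KO effects was below 0 for all 31 members (42% of all genes), with a median of -0.18 and a range from -0.51 to -0.04. No member passed the adjusted threshold (0.0229% of all genes did), and the smallest adjusted p was 0.256. At an unadjusted p under 0.05, 22 members were lower, against 1.99% of all genes. The C57 effect minus the 129 effect was below 0 for 29 members, where 40.3% of all genes were, with a median of -0.19. None of the members passed the adjusted threshold for that difference (0.0153% of all genes did), none had an unadjusted p under 0.05 (3.34% of all genes did) and the smallest adjusted p was 0.999. The score difference between the effects was -0.20 (SE 0.17), -0.39 within array set 1 and -0.03 within set 2. The larger C57 effect was therefore not separated from the 129 effect by the spread between arrays.

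**Figure D3:**
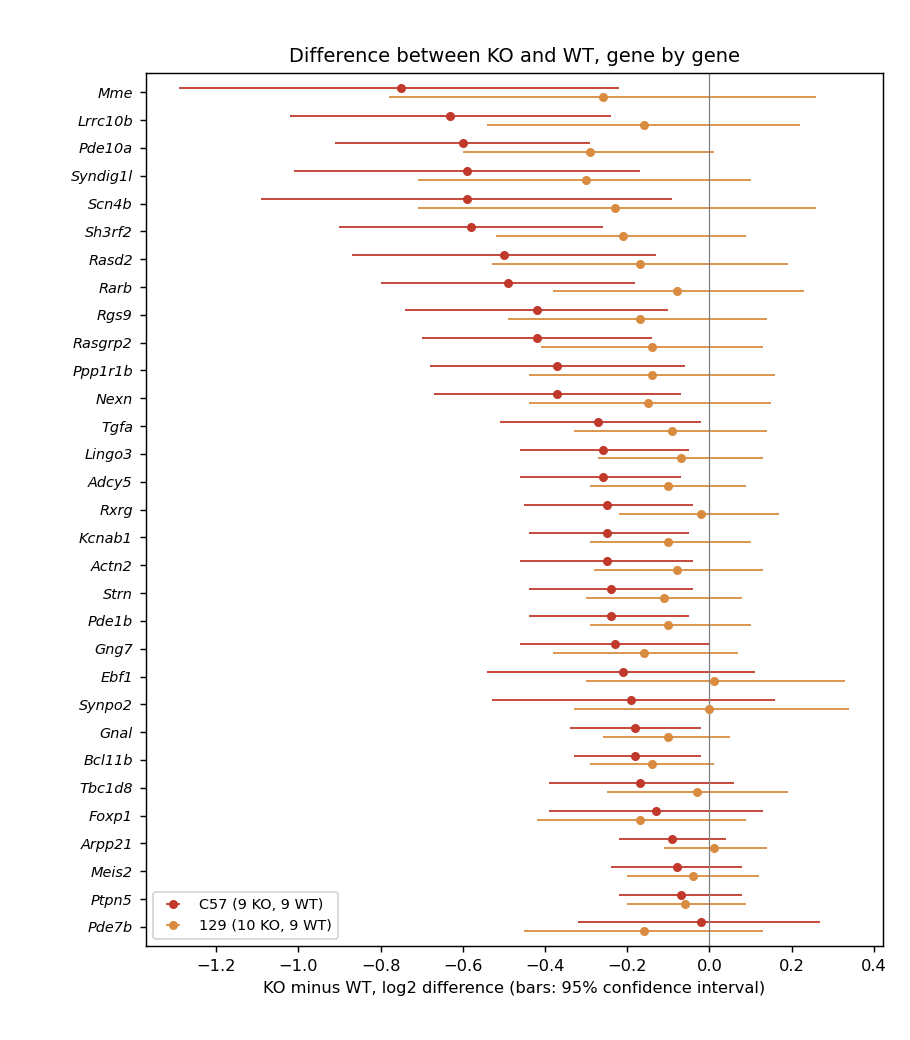
Difference KO minus WT on the log2 scale for each of the 31 genes, in C57 (red) and in 129 (orange), with 95% confidence intervals from the limma fit. All 31 C57 points lie below 0, from -0.75 for Mme to -0.02 for Pde7b, and the 129 points lie nearer 0, between -0.30 and 0.01.

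Signals are given below as the lowest, the median and the highest array of a group. The cAMP cascade had 8 members, all lower in C57 KO, with a median difference of -0.24, and 7 lower in 129 KO, with a median of -0.12. Ppp1r1b, which encodes DARPP-32, read 8.78, 9.52 and 9.88 in C57 WT and 8.61, 8.88 and 9.83 in C57 KO. The 129 arrays read 9.02, 9.40 and 9.63 in WT and 8.53, 9.21 and 9.75 in KO. The C57 groups covered nearly the same range, with 2 of 9 KO arrays below the lowest WT array and 7 of 9 below the WT median. The difference was -0.37 (SE 0.15) in C57 and -0.14 (SE 0.15) in 129.

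Pde10a encodes the striatal phosphodiesterase that breaks down both cAMP and cGMP, and had the largest C57 difference of the cascade. It read 8.80, 9.41 and 9.81 in C57 WT and 8.26, 8.70 and 9.48 in C57 KO. In 129 it read 8.85, 9.25 and 9.76 in WT and 8.61, 9.02 and 9.67 in KO. Of the C57 KO arrays 5 of 9 fell below the lowest WT array, and KO array 17 reached the upper part of the WT range. The difference was -0.60 (SE 0.15) in C57, a 1.52-fold lower mean, and -0.29 (SE 0.15) in 129. Without C57 KO array 17 the C57 difference was -0.69 with a limma adjusted p of 0.0422, against 0.207 with all arrays.

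Pde7b, which encodes a phosphodiesterase specific for cAMP, had the smallest C57 difference of all members. Its readings of 7.65, 8.39 and 8.82 in C57 WT and 8.08, 8.36 and 8.61 in C57 KO place all KO arrays inside the WT range. In 129 the gene read 7.97, 8.68 and 8.81 in WT and 7.59, 8.34 and 8.79 in KO. The differences were -0.02 (SE 0.15) in C57 and -0.16 (SE 0.14) in 129. The strains were thus ordered the other way round for this gene, with a difference between the effects of 0.14 (SE 0.20).

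The remaining members of the cascade were lower in C57 KO by smaller amounts than Pde10a. Adcy5, the adenylyl cyclase that striatal dopamine and adenosine receptors act on, had differences of -0.26 (SE 0.10) in C57 and -0.10 (SE 0.09) in 129, the former on its brightest probe set and nearer 0 on the others. Gnal and Gng7 encode the alpha and gamma subunits of the G protein that drives this cyclase. They had C57 differences of -0.18 (SE 0.08) and -0.23 (SE 0.11). Pde1b, a phosphodiesterase that calcium and calmodulin switch on, had -0.24 (SE 0.10). Arpp21, a striatal phosphoprotein regulated by cAMP, had -0.09 (SE 0.06) in C57 and 0.01 (SE 0.06) in 129.

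The regulators of G proteins and of Ras-like GTPases had a median C57 difference of -0.42 over 3 genes and -0.17 in 129, and none of the 3 passed the limma adjusted threshold. Those of Rasd2 and Rasgrp2 were both -0.25 in C57 and -0.01 in 129 with the second brightest probe set. Rgs9, whose striatal product ends signalling by dopamine receptors, read 7.44, 8.29 and 8.76 in C57 WT and 7.25, 7.83 and 8.39 in C57 KO. In 129 its readings were 7.76, 8.20 and 8.36 in WT and 7.39, 8.02 and 8.54 in KO. Only 2 of 9 C57 KO arrays were below the lowest WT array, but 8 of 9 were below the WT median. The difference was -0.42 (SE 0.16) in C57 and -0.17 (SE 0.15) in 129. Rasgrp2, an exchange factor for Rap GTPases, had nearly the same differences of -0.42 (SE 0.14) and -0.14 (SE 0.14). Its readings were 6.95, 7.40 and 7.81 in C57 WT, 6.46, 6.97 and 7.51 in C57 KO, 6.82, 7.31 and 7.50 in 129 WT and 6.60, 7.17 and 7.64 in 129 KO, overlapping in both strains.

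Rasd2 encodes Rhes, a small GTPase enriched in the striatum. It read 8.31, 8.58 and 9.61 in C57 WT and 7.55, 8.15 and 9.18 in C57 KO. For 129 the readings were 7.92, 8.20 and 8.77 in WT and 7.59, 7.96 and 8.67 in KO. In each strain 5 KO arrays were below the lowest WT array, while C57 WT array 26 stood above all others. The difference was -0.50 (SE 0.18) in C57 and -0.17 (SE 0.18) in 129.

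Of the phosphatase and the scaffold, Strn encodes striatin, a calmodulin-binding scaffold of dendritic spines. It read 7.77, 7.96 and 8.40 in C57 WT and 7.42, 7.81 and 8.20 in C57 KO, with 4 of 9 KO arrays below the WT range. The 129 readings were 7.65, 7.96 and 8.13 in WT and 7.50, 7.87 and 8.08 in KO. Differences were -0.24 (SE 0.10) and -0.11 (SE 0.10). Ptpn5, the gene of the striatum-enriched tyrosine phosphatase STEP, had differences near 0 over all arrays. Its readings were 8.41, 8.48 and 8.89 in C57 WT, 8.29, 8.47 and 8.60 in C57 KO, 8.38, 8.56 and 8.73 in 129 WT and 8.31, 8.46 and 9.00 in 129 KO. The medians of all 4 groups lay close together, and the differences were -0.07 (SE 0.07) in C57 and -0.06 (SE 0.07) in 129. The array sets differed in sign for Ptpn5 in C57, with -0.24 in set 1 alone and 0.09 in set 2 alone.

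The transcription factors numbered 6, all lower in C57 KO with a median of -0.19, and 5 lower in 129 KO with a median of -0.06. Rarb encodes retinoic acid receptor beta and had the largest C57 difference of them. It read 6.20, 6.84 and 7.36 in C57 WT and 5.85, 6.22 and 6.78 in C57 KO, so that all 9 KO arrays were below the WT median and 4 below the lowest WT array. In 129 it read 6.34, 6.92 and 7.18 in WT and 6.32, 6.77 and 7.61 in KO, and the highest array of that strain was KO array 59. The difference was -0.49 (SE 0.15) in C57, a 1.41-fold lower mean, and -0.08 (SE 0.15) in 129. Rxrg, a retinoid X receptor that pairs with retinoic acid receptors, had -0.25 (SE 0.10) and -0.02 (SE 0.10).

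Meis2, a homeodomain factor of developing striatum, had the smallest C57 difference among these factors. It read 8.42, 8.83 and 9.13 in C57 WT and 8.57, 8.64 and 8.88 in C57 KO, with no KO array below the WT range. Its 129 readings of 8.54, 8.87 and 9.09 in WT and 8.57, 8.76 and 9.06 in KO covered nearly the same range. The differences were -0.08 (SE 0.08) and -0.04 (SE 0.08). Bcl11b, known as Ctip2 and needed for the differentiation of these neurons, had -0.18 (SE 0.08) in C57 and -0.14 (SE 0.07) in 129. In the KO groups 9 of 9 C57 arrays and 9 of 10 129 arrays read below the WT median for Bcl11b. Foxp1, a forkhead factor, had -0.13 (SE 0.13) and -0.17 (SE 0.13), and Ebf1, a factor of the direct striatal pathway in development, had -0.21 (SE 0.16) and 0.01 (SE 0.16).

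Both channel subunits were lower in C57 KO. Scn4b, the beta subunit that lets sodium channels reopen after a spike, read 7.48, 8.81 and 9.63 in C57 WT and 7.15, 8.09 and 9.06 in C57 KO. Its 129 readings were 7.98, 8.63 and 9.14 in WT and 7.50, 8.14 and 8.93 in KO. The gene had the widest range of the set, 2.48 over all arrays, and only 1 C57 KO array was below the lowest WT array. The difference was -0.59 (SE 0.25) in C57 and -0.23 (SE 0.24) in 129. Kcnab1, a potassium channel beta subunit, read 8.09, 8.58 and 8.82 in C57 WT and 7.86, 8.36 and 8.64 in C57 KO, a difference of -0.25 (SE 0.10). In 129 it read 8.39, 8.51 and 8.88 in WT and 8.12, 8.39 and 8.76 in KO, a difference of -0.10 (SE 0.10). In 129 5 of 10 KO arrays were below the lowest WT array for Kcnab1.

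The surface and membrane proteins had a median difference of -0.43 over 4 genes in C57 and -0.18 in 129. Mme encodes neprilysin, a peptidase that cuts enkephalins at the cell surface, and had the largest C57 difference of all members. It read 3.77, 4.75 and 5.41 in C57 WT and 2.97, 3.89 and 5.24 in C57 KO. The readings in 129 were 3.71, 4.66 and 5.33 in WT and 3.48, 4.28 and 5.18 in KO. The signal was near the filter at 3.6, 4 of 9 C57 KO arrays were below the lowest WT array, and the spread within C57 KO was wide (SD 0.77). The difference was -0.75 (SE 0.27) in C57, a 1.69-fold lower mean, and -0.26 (SE 0.26) in 129. Syndig1l, a transmembrane protein also called capucin, had -0.59 (SE 0.21) and -0.30 (SE 0.20), the latter the largest of the set in 129.

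Lingo3, a membrane protein with leucine-rich repeats, had the smallest C57 difference of that group. It read 6.97, 7.39 and 7.88 in C57 WT, 6.84, 7.19 and 7.49 in C57 KO, 7.17, 7.52 and 7.71 in 129 WT and 7.16, 7.48 and 7.68 in 129 KO. The groups overlapped in both strains, with differences of -0.26 (SE 0.10) and -0.07 (SE 0.10). Tgfa, a ligand of the epidermal growth factor receptor, had -0.27 (SE 0.12) and -0.09 (SE 0.12).

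The actin cytoskeleton was represented by 3 genes whose products bind actin. Nexn, the gene of nexilin, read 4.69, 5.48 and 5.82 in C57 WT and 4.44, 5.13 and 5.51 in C57 KO, with 2 of 9 KO arrays below the WT range. In 129, Nexn read 5.03, 5.31 and 5.66 in WT and 4.51, 5.23 and 5.63 in KO. Differences were -0.37 (SE 0.15) and -0.15 (SE 0.15). Synpo2 read 3.76, 4.62 and 5.16 in C57 WT, 3.92, 4.30 and 4.80 in C57 KO, 3.80, 4.46 and 4.95 in 129 WT and 3.77, 4.60 and 4.86 in 129 KO. No C57 KO array was below the lowest WT array for Synpo2, and the differences were -0.19 (SE 0.17) and 0.00 (SE 0.17). Actn2, which encodes an alpha-actinin that cross-links actin, had -0.25 (SE 0.10) and -0.08 (SE 0.10).

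Of the 3 other members, Lrrc10b encodes a protein with leucine-rich repeats. It read 6.56, 7.40 and 8.21 in C57 WT and 6.30, 6.94 and 7.70 in C57 KO, where 8 of 9 KO arrays were below the WT median. In 129 it read 6.89, 7.49 and 7.78 in WT and 6.51, 7.19 and 7.87 in KO. The difference was -0.63 (SE 0.19) in C57, a 1.55-fold lower mean, and -0.16 (SE 0.19) in 129. Sh3rf2, which encodes a RING finger protein with SH3 domains, had -0.58 (SE 0.16) and -0.21 (SE 0.15), and all 9 C57 KO arrays were below the WT median. Tbc1d8, of a family that acts on Rab GTPases, read 5.71, 6.39 and 6.77 in C57 WT, 5.83, 6.24 and 6.58 in C57 KO, 6.15, 6.46 and 6.62 in 129 WT and 5.99, 6.35 and 6.89 in 129 KO. Its C57 KO arrays all lay inside the WT range, and its differences were -0.17 (SE 0.11) and -0.03 (SE 0.11).

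The strains were compared within each genotype. These comparisons use the same arrays as those of KO with WT and are no separate evidence. In WT, 20 members were lower in 129 than in C57 and 11 higher, with a median of -0.03, where 42.1% of all genes were lower. No member passed the limma adjusted threshold (2.06% of all genes did), and the smallest adjusted p was 0.276. At an unadjusted p under 0.05 there was 1 member, Rasd2, with a difference of -0.45 (SE 0.18), where 11.6% of all genes passed and 4.87% were lower. The score difference was -0.04 (SE 0.11), and it was -0.28 within array set 1 and 0.19 within set 2. It was 0.02 without C57 WT array 26 and -0.11 without C57 WT array 37.

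In KO, 30 members were higher in 129 than in C57, with a median of 0.12, where 53.5% of all genes were lower. Rasd2 was the exception at -0.12 (SE 0.18). No member passed the limma adjusted threshold (3.06% of all genes did), and 5 were higher at an unadjusted p under 0.05, where 12.3% of all genes passed in either direction and 4.43% were higher. They were Ebf1 at 0.52 (SE 0.16), Sh3rf2 at 0.43 (SE 0.15), Rarb at 0.41 (SE 0.15), Lingo3 at 0.27 (SE 0.10) and Arpp21 at 0.13 (SE 0.06). The score difference was 0.16 (SE 0.12).

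Ebf1 had the smallest adjusted p of the members in that comparison, 0.0626. It passed the threshold when single arrays were left out, with adjusted p = 0.0147 without 129 KO array 52, 0.0256 without 129 KO array 53, 0.0413 without 129 KO array 56, 0.0482 without C57 KO array 2 and 0.0374 without C57 KO array 8. Its second brightest probe set gave the opposite sign, lower in 129 by -0.50 in KO (adjusted p = 0.00323) and by -0.46 in WT (adjusted p = 0.0119). The direction of Ebf1 between the strains thus rested on the probe set that was read.

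The members differed in how far they moved with the shared shift. For each gene a slope on the mean of the other 30 members was taken over the 37 arrays with group means removed, so that a slope of 1 stands for moving as far as the rest. Scn4b (2.15), Mme (2.08), Lrrc10b (1.69) and Syndig1l (1.64) had the steepest slopes. Bcl11b (0.43), Arpp21 (0.37) and Ptpn5 (0.32) had the shallowest. By role, the median slope was 1.28 for the G protein and Ras regulators and for the surface proteins, 1.14 for the actin-binding members, 0.84 for the cAMP cascade and 0.62 for the transcription factors. The slope is on the log2 scale and depends on how much of a probe set's signal is background, so that it does not rank the transcripts themselves.

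Genes with steep slopes also had the larger C57 differences. Over the 31 genes the slope and the C57 difference had a Pearson correlation of -0.83, a description over genes that share the same arrays. The plot of slopes against differences shows this as a band along the line of slope times the score difference.

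**Figure D4:**
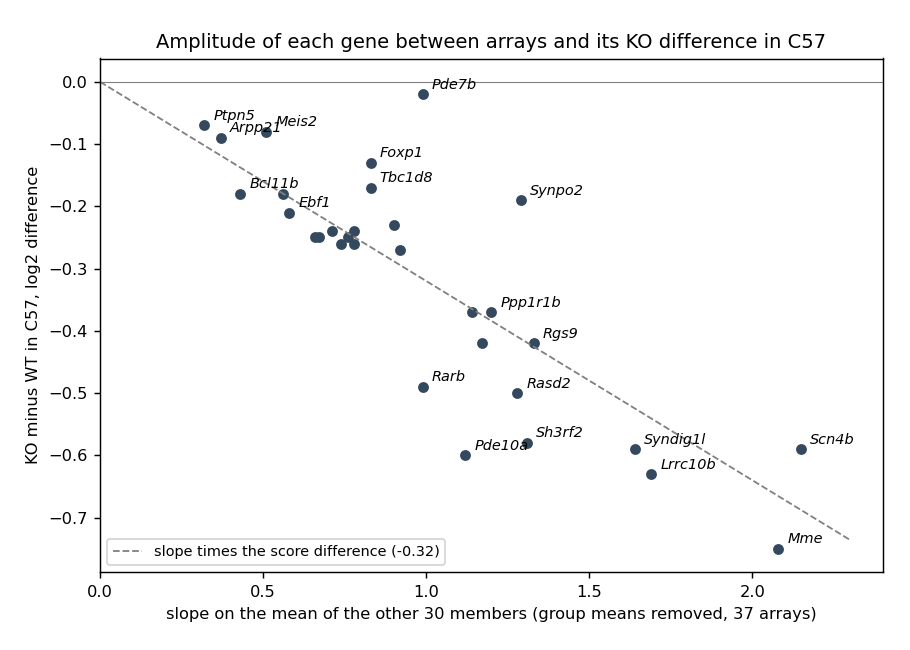
Difference KO minus WT in C57 (vertical, log2) against the slope of each gene on the mean of the other 30 members (horizontal, group means removed), 1 point per gene. Most points follow the dashed line, slope times the score difference of -0.32. Pde10a at -0.60 and Rarb at -0.49 lie below it, and Pde7b at -0.02 and Synpo2 at -0.19 lie above it.

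The difference between genotypes was then taken at an equal level of the other members, within each strain, with their mean as a covariate. In C57 the median size of the difference was 0.25 before and 0.06 after, and 15 of 31 members then remained on the lower side. Pde10a was then at -0.26 (SE 0.12) against -0.60 before, Sh3rf2 at -0.19 (SE 0.08) against -0.58 and Rarb at -0.14 (SE 0.07) against -0.49. Ppp1r1b and Rgs9 were at 0.00 (SE 0.10) and 0.01 (SE 0.08). The members furthest to the other side were Pde7b at 0.26 (SE 0.08), Synpo2 at 0.21 (SE 0.10) and Tbc1d8 at 0.13 (SE 0.07). In 129 the median size went from 0.11 to 0.04, with 14 of 31 on the lower side, and Pde10a had -0.16 (SE 0.10). The covariate was built from the members and carries their shared difference, so values near 0 with members on both sides follow from its construction. These values have no test and only place the members relative to each other.

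The members followed the markers and each other. The correlation with the mean of Ppp1r1b, Pde10a and Rgs9 (for a marker, with the mean of the other markers) had a median of 0.78 over the 31 genes, with group means removed and 37 arrays in each value. Against a median of 0.01 over all 13078 genes, 28 members were among the 100 closest genes and 19 among the 30 closest. For these places each marker was correlated with the mean of all 3 markers, itself included. Ppp1r1b, Rgs9 and Pde10a at places 1, 2 and 3 thus follow from the measure. Some other members were picked for their correlation, so the counts describe the choice. Among the members alone, the 465 pairs had a median correlation of 0.69, from 0.14 to 0.93, and all were above 0. The closest pairs were Scn4b with Lrrc10b and Pde1b with Rgs9, both at 0.93. Outside the 100 closest genes were Bcl11b (0.58), Ptpn5 (0.49) and Ebf1 (0.23), the last at place 1883.

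The genes outside the set that came closest to the markers were led by receptors and peptides of the same neurons. Drd2, the D2 dopamine receptor, had a correlation of 0.89, and Penk, the precursor of enkephalins, 0.86. Smpd3 (0.85), Ppp1r16b (0.84), Gpr6 (0.82), Ido1, Gm6556, Pcp4l1 and Hpca (each 0.81) and Shb (0.80) followed. Gpr6, an orphan receptor of the indirect pathway, had a C57 difference of -0.77 (SE 0.19), and Drd2 had -0.59 (SE 0.18). All 10 were lower in C57 KO, from -0.17 for Pcp4l1 to -0.77 for Gpr6, and none passed the adjusted threshold. Of all genes tested 38.4% were lower. The 10 were picked by their correlation with markers that were lower in C57 KO on these arrays, so their shared direction partly describes that choice.

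Other probe sets of the same genes were read on the same arrays, so they are not separate observations. There were 51 of them for 20 members, and 11 members had only 1 probe set. Of these 51, 40 reached the filter, and 39 of the 40 were lower in C57 KO with a median of -0.18, while 32 were lower in 129 KO with a median of -0.09. Of all genes tested, each read by its brightest probe set, 38.4% were lower in C57 KO and 52.4% in 129 KO. The median correlation of the 40 probe sets with the markers was 0.48, from -0.03 to 0.80. All 5 probe sets of Pde10a were lower in C57 KO, from -0.41 to -0.63, and correlated with the markers at 0.56 or more. In 129 the brightest read -0.29 and the other Pde10a probe sets -0.03, -0.09, -0.24 and -0.01. The second brightest probe set gave a C57 difference smaller by over 1.5 times for Adcy5 (-0.07), Ebf1 (-0.05), Rasd2 (-0.25), Rasgrp2 (-0.25), Strn (-0.10), Synpo2 (-0.02) and Tgfa (-0.04). It gave a larger one for Arpp21 (-0.25), Gnal (-0.46) and Pde7b (-0.14). Also larger with it were Foxp1 (-0.18), Kcnab1 (-0.31), Meis2 (-0.10), Pde10a (-0.63), Ptpn5 (-0.11) and Rgs9 (-0.50). With probe sets averaged, Adcy5 read -0.04 and Mme -0.46 in C57. All 8 of Foxp1 were lower in both strains. The probe sets of Arpp21 disagreed, with correlations of 0.76 for the brightest and 0.38, 0.00, -0.03 and 0.08 for the others. For Ebf1 the other probe sets above the filter followed the markers at 0.42 to 0.49, more closely than the brightest at 0.23. The 11 probe sets below the filter had a median C57 difference of -0.03 and a median correlation of 0.17.

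Genes of the same pathways that are not specific to these neurons were read beside the members. Of 28 general genes of cAMP and protein kinase A signalling, 9 were lower in C57 KO, with a median of 0.03, and their median correlation with the markers was 0.11. Ppp1cb, whose product is a catalytic part of protein phosphatase 1, was called in C57, where it fell by 0.42 in KO (SE 0.09, limma adjusted p = 0.0285) and had a difference of 0.06 (SE 0.08) in 129. It lies on chromosome 5, as Wfs1 does, whereas none of the 31 members lies on that chromosome. In WT the 129 signal of Ppp1cb was also below C57, by -0.51 (SE 0.09, adjusted p = 0.000307), a comparison that shares the C57 WT arrays. Both Ppp1cb calls rest on its brightest probe set: with its probe sets averaged the C57 KO difference was 0.07 (adjusted p = 0.991) and the WT strain difference 0.08 (adjusted p = 0.637), and with the second brightest they were -0.06 (adjusted p = 0.998) and -0.01 (adjusted p = 0.982). The C57 KO call was also lost, at adjusted p between 0.0534 and 0.0784, when C57 KO array 1, 2, 7 or 10 or C57 WT array 26, 33, 40 or 42 was left out, with differences between -0.41 and -0.37. Within the smaller array sets that call was lost too, at -0.38 in set 1 alone (adjusted p = 0.885) and -0.43 in set 2 alone (adjusted p = 0.729). The WT strain call of Ppp1cb was lost in set 2 alone (-0.4, adjusted p = 0.09). Gnb1, a G protein beta subunit, was 0.64 higher in 129 WT than in C57 WT (SE 0.16, adjusted p = 0.0259). That call was lost without C57 WT array 25 (adjusted p = 0.0601), 34 (adjusted p = 0.0718) or 40 (adjusted p = 0.0641), and with the second brightest probe set (0.33, adjusted p = 0.136). It was also lost in array set 1 alone (0.57, adjusted p = 0.312) and in set 2 alone (0.71, adjusted p = 0.209). No other gene of that list was called in any of the 6 comparisons. Of 12 retinoid pathway genes 6 were lower in C57 KO, with a median of 0.00 and none called, and the closest to the markers was Aldh1a1, a retinaldehyde dehydrogenase, at 0.61. The retinoid list score followed the member score at 0.53 and the general cAMP list score at 0.31.

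Receptors and peptides of the direct and indirect pathways moved with the members. Of 10 listed genes 6 were tested, Drd1, Drd2, Gpr6, Penk, Tac1 and Pdyn. All 6 were lower in C57 KO, with a median of -0.36, and in 129 KO, with a median of -0.11, and none was called. Their list score had a correlation of 0.92 with the member score within groups. It ranged from -0.31 to 0.63 in C57 WT and from -0.58 to 0.31 in C57 KO. Pdyn, the dynorphin precursor, was the loosest of them, with a correlation of 0.40 with the markers.

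Markers of other cells and regions were read from the same arrays. The cholinergic neuron markers Slc18a3, Isl1 and Lhx8, 3 tested of 6 listed, were all lower in KO of both strains and none was called. Their score followed the member score at 0.69 and ranged from -0.40 to 0.46 in C57 WT, -0.71 to 0.51 in C57 KO, -0.21 to 0.51 in 129 WT and -0.56 to 0.90 in 129 KO. The oligodendrocyte and myelin markers were lower in C57 KO for 8 of 9 genes, with a median of -0.15, and in 129 KO for 9 of 9, with a median of -0.10. Their score followed the members at 0.51, from -0.16 to 0.54 in C57 WT, -0.46 to 0.49 in C57 KO, -0.31 to 0.09 in 129 WT and -0.41 to 0.13 in 129 KO. The amygdala markers went the other way, with 1 of 7 lower in C57 KO, a median of 0.19 and a score correlation of -0.33. That score ranged from -0.34 to 0.05 in C57 WT, -0.25 to 0.24 in C57 KO, -0.13 to 0.15 in 129 WT and -0.12 to 0.19 in 129 KO. Lypd1 of that list had a correlation of -0.66 with the markers. No gene of the oligodendrocyte and amygdala lists was called either. The part of any of these lists in the differences of the members was not tested.

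The other lists followed the members less. In C57 KO the medians were -0.01 for 10 cortical layer markers, 0.05 for 6 hippocampus, 0.11 for 8 interneuron, 0.05 for 6 thalamus, 0.06 for 8 astrocyte, 0.01 for 8 microglia, 0.02 for 7 vessel and -0.18 for 4 choroid plexus markers. Their scores had correlations with the member score between -0.30 for hippocampus and 0.37 for the cortical layers. S100b, an astrocyte protein, was the single called gene of these lists, lower in 129 KO than in C57 KO by -0.25 (SE 0.05, limma adjusted p = 0.00528). With its second brightest probe set that difference was -0.11 (adjusted p = 0.561), and in array set 2 alone it was -0.12 (adjusted p = 0.758). The plot of correlations by list shows the members and the receptors and peptides on the right, the myelin and cholinergic markers behind them and the other lists with medians from -0.26 for the amygdala markers to 0.20 for microglia.

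**Figure D5:**
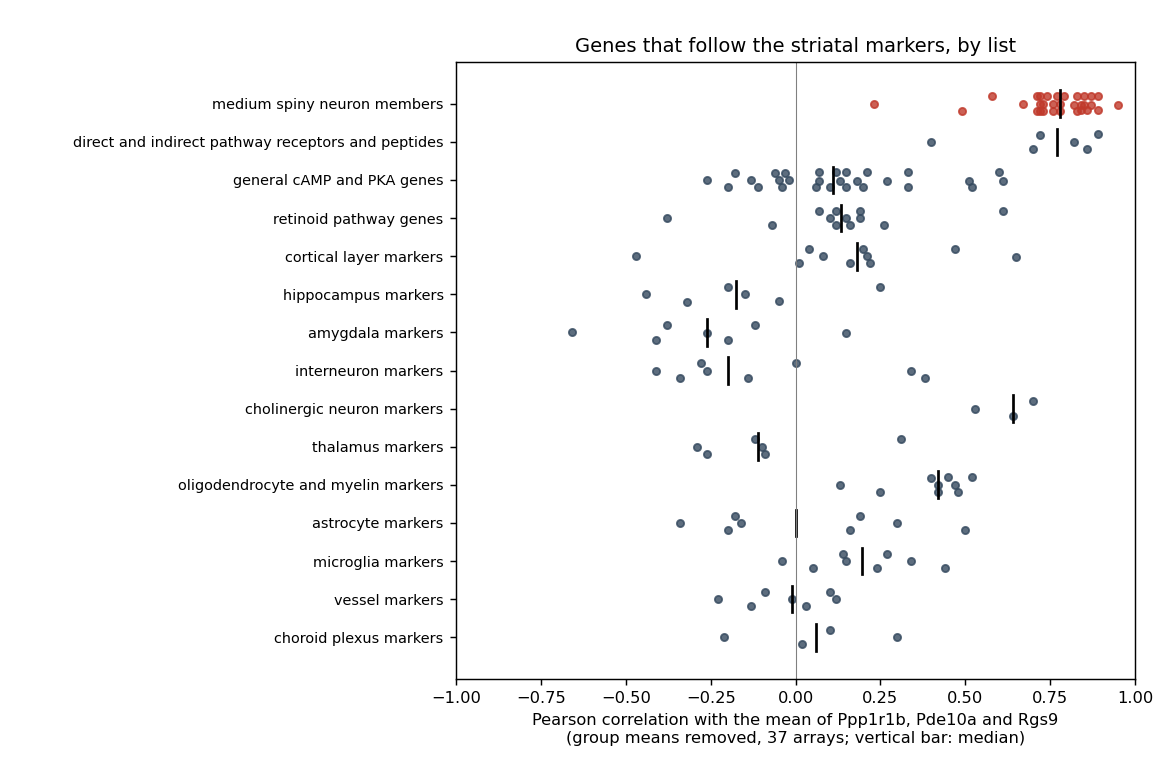
Pearson correlation of each gene with the mean of Ppp1r1b, Pde10a and Rgs9 over 37 arrays with group means removed, by list; each point is a gene and the vertical bar is the median. The members have a median of 0.78 and the direct and indirect pathway genes 0.77, against 0.64 for the 3 cholinergic, 0.42 for the myelin and -0.26 for the amygdala markers.

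Since the members moved together, their promoters were searched for shared motifs. RefSeq promoters on GRCm38.p6, from 250 bases before to 50 after the start site, were matched for 26 of the 31 genes, with 50 promoters in all. Shown are 3, for the marker Rgs9, for Rarb, which had the largest difference among the transcription factors, and for Scn4b, which had the steepest slope. The Rgs9 promoter is at chr11:109298132-109298431 on the minus strand, that of Rarb at chr14:16575427-16575726 on the minus strand and that of Scn4b at chr9:45138374-45138673 on the plus strand. All are written 5′ to 3′ along the gene. Capitals mark TATAAA and the GC box GGGCGG, on either strand, in Rgs9, and the DR5 retinoic acid response element and TGACAG in Rarb, and none of the motifs searched was found in that of Scn4b.
Rgs9: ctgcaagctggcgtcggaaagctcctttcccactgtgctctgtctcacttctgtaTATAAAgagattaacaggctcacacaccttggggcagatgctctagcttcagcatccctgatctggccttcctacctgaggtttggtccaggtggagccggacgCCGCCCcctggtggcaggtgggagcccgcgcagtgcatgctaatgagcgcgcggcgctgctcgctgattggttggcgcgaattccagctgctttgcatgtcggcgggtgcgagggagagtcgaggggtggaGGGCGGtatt
Rarb: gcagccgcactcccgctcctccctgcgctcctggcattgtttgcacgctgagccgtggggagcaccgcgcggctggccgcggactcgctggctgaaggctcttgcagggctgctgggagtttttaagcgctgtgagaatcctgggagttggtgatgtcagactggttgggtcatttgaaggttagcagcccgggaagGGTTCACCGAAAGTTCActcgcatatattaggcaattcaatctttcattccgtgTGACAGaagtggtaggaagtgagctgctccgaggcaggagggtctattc
Scn4b: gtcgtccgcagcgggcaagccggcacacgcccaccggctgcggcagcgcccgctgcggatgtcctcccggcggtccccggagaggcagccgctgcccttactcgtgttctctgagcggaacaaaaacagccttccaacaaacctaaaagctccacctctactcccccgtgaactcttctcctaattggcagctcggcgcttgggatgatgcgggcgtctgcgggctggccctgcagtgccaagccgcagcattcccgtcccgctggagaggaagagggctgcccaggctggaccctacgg

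The DR5 element, a direct repeat of the site of retinoic acid receptors, was found in the Rarb promoter, at bases -53 to -37 counted from the start site, and in no other member promoter. It occurs in 32 of all 32851 promoters, 0.0974%. The cAMP response element TGACGTCA, searched on both strands, was in none of the 50 member promoters and in 1.79% of all. TATAAA was in 6 of 50, with 13.6% of all promoters holding it. GGGCGG was in 23 of 50, or 46%, with 35.7% of all, and TGACAG, the site that MEIS factors bind, in 13 of 50, or 26%, with 19.2% of all. The median GC content was 57.5% in the member promoters and 52.7% in all. Several promoters of 1 gene overlap, so these shares are descriptions, and a match is not evidence of binding.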

How the data were processed

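The deposited table gave log2 signals of 45101 probe sets on 37 arrays, already normalized by the authors. MAS5 and GCRMA are named in the submitters' processing notes, without their roles, and the values have the form GCRMA writes, and array medians lay between 4.30 and 4.36. No further scaling and no pseudocount were applied. Depth does not apply to arrays, and the number of arrays limits the precision.

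Probe sets with 1 gene symbol in the platform annotation were kept (34945), several (932) or none (9160) left out. Genes whose mean stayed below the 40th percentile of probe set means in every group were not tested. For the 13078 others, limma (version 3.58.1, run in R 4.3.3) estimated the 4 group means from all 37 arrays, with 6 contrasts and 2-sided Benjamini-Hochberg adjusted p-values, called under 0.05. The fit was checked on simulated data of independent genes, with shifts larger than the median difference of the members. That check does not bear on the members, whose values are correlated. Scores, correlations and slopes came from pandas 2.3.3 and NumPy 2.4.6 in Python 3.11.15, and plots from matplotlib 3.10.9. Promoters came from RefSeq on GRCm38.p6.

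The members and the lists of other genes were chosen with earlier results of these data known. Signals by group were given for Ppp1r1b, Pde10a, Rgs9 and, in each role, the members with the largest and the smallest C57 difference. Named besides were the 10 genes closest to the markers and up to 3 called genes of each list and contrast. Alternatives covered the filter, the normalization, the probe set, the variance model, array weights, the array sets, the actin difference and each array left out.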

Additional observations from a re-analysis of the deposited data

Results flagged for a closer look

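In 5 of 128 series of values, a gene in a group of arrays, 1 array stood apart from the others by Dixon's test at its 95% level. Chance alone would set about 1 in 20 groups apart, and the genes are not independent. All 5 were in C57 WT and involved its arrays 26 and 37, the highest and the lowest of that group by score. Rasd2 read 9.61 in array 26, with the next array at 8.94, and Ptpn5 read 8.89 there, with the next at 8.63. In array 37 Foxp1 read 8.19, with the next array at 8.86, Kcnab1 read 8.09, with the next at 8.53, and Tbc1d8 read 5.71, with the next at 6.28. The C57 score difference was -0.26 without array 26 and -0.39 without array 37.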

How the results depend on the processing

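No paired analysis was possible because the groups share no sample numbers. The limits are the overlap of the groups, 37 arrays with no stated animal, sex or age, array sets that came from the data, and members chosen on these arrays.

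The score difference in C57 stayed below 0 in each alternative run, from -0.29 with probe sets averaged per gene to -0.46 with the 3 markers alone (-0.95 in SD units with each member scaled to SD 1), and from -0.39 to -0.26 with single arrays left out. The C57 count of lower members was 29 of 31 in array set 2 alone, where Pde7b (0.07) and Ptpn5 (0.09) were higher, and 29 of 29 with the filter at the 60th percentile, which drops Mme and Synpo2. It was 30 of 30 under either other choice of probe set, and 30 of 31, Pde7b being higher, without C57 KO array 3 or 9 or C57 WT array 25 or 26. With single arrays left out, the 129 score difference ranged from -0.16 to -0.08, the mean effect from -0.25 to -0.19, the difference of the effects from -0.26 to -0.14, the strain difference in WT from -0.11 to 0.02 and in KO from 0.11 to 0.20. Lower members then ranged from 27 to 31 in 129, from 14 to 25 for 129 minus C57 in WT and from 0 to 5 in KO. Calls of a member ranged from 0 to 1 for KO minus WT in C57 (Pde10a without C57 KO array 17) and for 129 minus C57 in KO (Ebf1). Calls in the other gene lists over all contrasts, 4 with all arrays, ranged from 3 to 13, without C57 KO array 7 and 129 KO array 59 at the ends.

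Lower members in 129 numbered 13 in array set 1 alone. For 129 minus C57 in WT there were 2 in set 2 alone and 30 in set 1 alone. For 129 minus C57 in KO there were 5 in set 1, 3 in set 2, 3 with the second brightest probe set and 2 with the actin covariate, against 1. With array weights 1 member, Pde10a, passed for the mean of the KO effects (-0.51, adjusted p = 0.0265) and 1, Ebf1, for 129 minus C57 in KO. With the second brightest probe set 1 member, Ebf1, passed in each strain comparison. Calls in the other lists numbered 10 with quantile normalization, 2 with the mean of probe sets, 18 with array weights, 7 with the array set as a block, 8 in set 1 and 1 in set 2, alternatives added after the data had been seen. The cause of these shifts was not tested.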

Other observations

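Some genes ran opposite to the medium spiny neuron markers in the same arrays. They were chosen after their values were seen. The lowest correlations with the mean of Ppp1r1b, Pde10a and Rgs9, with group means removed and over 37 arrays, were those of Hpcal1 at -0.82, Esyt3 at -0.78, Ngb at -0.74, Pcdh19 at -0.70 and Itga4 at -0.70. Hpcal1 encodes a neuronal calcium sensor, Ngb is neuroglobin and Trhr, at -0.66, is the receptor of thyrotropin-releasing hormone. The differences between KO and WT in C57 were 0.15 (SE 0.08) for Hpcal1, 0.23 (SE 0.09) for Esyt3 and 0.43 (SE 0.19) for Trhr, and none of these genes passed the adjusted threshold. Hpca, a calcium sensor of the same family as Hpcal1, ran with the markers at 0.81. Over all 13078 genes tested, 58 had a correlation of at least 0.7 with the mean of the markers. That count includes members of the set and the markers themselves.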
